A study of Mus musculus with 8 samples.

Results

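The 10 genes described here are the core enzymes and regulators of fatty acid synthesis in hepatocytes, named by symbol and followed through the 55401 genes of the deposited tables. They are Acly and Acss2, which make cytosolic acetyl-CoA, the acetyl-CoA carboxylases Acaca and Acacb, the fatty acid synthase Fasn, the malic enzyme Me1, the liver pyruvate kinase Pklr, the Spot14 gene Thrsp, and the transcription factor genes Srebf1 and Mlxipl. All 10 symbols matched exactly 1 gene identifier, and all 10 passed the filter on low counts, which left 13908 genes. Liver RNA came from C57BL/6J mice given an adeno-associated virus aimed at hepatocytes, carrying either a control hairpin (shNC, 4 libraries) or a hairpin against Tbl1xr1 (shTbl1xr1, 4 libraries). In both groups partial hepatectomy followed 4 weeks later and the remaining liver was collected on day 2, so every library, controls included, comes from virus-treated regenerating liver. The sources used here do not give the sex, the age or the feeding of the mice, and no label states that each library is a separate animal. The p-values therefore measure the spread between libraries, part of which may be technical. The hairpins were directed to hepatocytes, while the RNA is from whole liver, and in such bulk samples fewer cells of a type and less RNA per cell cannot be told apart.

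Fatty acid synthesis builds palmitate in the cytosol from acetyl-CoA, with malonyl-CoA as the chain-extending unit and NADPH as the reductant. In liver the pathway is switched on by feeding: insulin acts through SREBP1, the product of Srebf1, and glucose metabolites act through ChREBP, the product of Mlxipl. Tbl1xr1 encodes a subunit of the NCoR/SMRT corepressor complex, which nuclear receptors recruit to keep target genes low.

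The libraries were not alike in depth. Total expected counts were 25811763 to 27537235 in shNC, and 10895508, 10728583, 26976205 and 36720879 in shTbl1xr1 1 to 4. The libraries shTbl1xr1 1 and 2, called the shallow pair here, also had 11.3% and 14.8% of counts on mitochondrially encoded genes, against 4.52% to 7.34% in the other 6. Tbl1xr1 itself was at 27.2 to 35.9 CPM (counts relative to library size, TMM-scaled) in shNC. In shTbl1xr1 1 to 4 it was at 2.38, 2.07, 9.24 and 15.9 CPM, lowest in the shallow pair and highest in shTbl1xr1 4. In the shallow pair, a deeper knockdown and the other differences of these libraries cannot be told apart. By edgeR the log2 fold change of Tbl1xr1 was -2.07 (SE 0.54, adjusted p = 0.29), with every shTbl1xr1 library below every shNC library. It was -1.38 in the deeper libraries only (adjusted p = 0.143) and -3.88 with the shallow pair alone (adjusted p = 6.62e-05), and DESeq2 gave an adjusted p of 0.00862 over all libraries. With the shallow pair alone, 21.1% of all genes were called lower. Values from the deeper libraries only, which leave out the shallow pair, are given for each fold change and ratio that they move by more than 1.5 times or turn in sign. The libraries carried hepatocyte RNA in quantity, with albumin (Alb) at means of 47727 CPM in shNC and 46746 CPM in shTbl1xr1.

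Sequences before a transcription start of the 4 genes with the smallest unadjusted p among the 10 are shown. These genes were the highest above shNC, and their shared sequence features were not used to choose them. Each line gives the 150 bases before a RefSeq transcription start (build GRCm38.p6), 5′ to 3′ on the gene's strand. Every CCAAT box, in either orientation (CCAAT or ATTGG), is in capitals. CCAAT is the box bound by NF-Y, a factor known to act beside SREBP at lipogenic promoters.
Thrsp, chr7:97417551-97417700, minus strand: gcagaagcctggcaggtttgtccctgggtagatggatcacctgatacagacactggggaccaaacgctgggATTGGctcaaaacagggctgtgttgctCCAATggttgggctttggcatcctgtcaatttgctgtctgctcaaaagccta
Acacb, chr5:114165368-114165517, plus strand: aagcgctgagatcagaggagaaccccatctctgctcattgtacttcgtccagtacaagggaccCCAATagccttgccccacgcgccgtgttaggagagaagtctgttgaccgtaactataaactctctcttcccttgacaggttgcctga
Acss2, chr2:155517893-155518042, plus strand: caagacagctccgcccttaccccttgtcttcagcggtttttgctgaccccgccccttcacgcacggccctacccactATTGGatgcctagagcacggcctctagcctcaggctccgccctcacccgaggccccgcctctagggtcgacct
Fasn, chr11:120824548-120824697, minus strand: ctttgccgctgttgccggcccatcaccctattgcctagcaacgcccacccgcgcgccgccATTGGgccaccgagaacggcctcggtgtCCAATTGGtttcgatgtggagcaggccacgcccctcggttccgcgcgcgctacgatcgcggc

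Thrsp holds a box in each orientation, 79 and 52 bases before its start. Fasn holds boxes 90, 62 and 59 bases before its start, the last 2 of which overlap. Acacb and Acss2 hold 1 each, 87 and 73 bases before the start. These starts need not be the outer ends of the annotated genes. The Acacb line lies inside its gene, which begins at 114146535, so it precedes an internal start. The Thrsp line lies just inside its gene's annotated 5′ end (97417730), and the Acss2 line spans that of its gene (155517948). In the full RefSeq windows, which run from 250 bases before to 50 after a start, a CCAAT box was present in 10 of the 15 windows of the 10 genes, against 37.4% of all 32851 windows. Counted by gene, 9 of the 10 (all but Acaca) had a box in at least 1 window, against 41.1% of 27025 genes. The other motifs searched on both strands were rarer: TCACNCCAC, a sterol response element sequence, and the E-box CACGTG each lay in 1 of the 15 windows, both at Mlxipl, against 1.24% and 7.15% of all windows. The Sp1 box GGGCGG lay in 6 of 15, against 35.7%. These are matches of letters, and shares over 15 windows of 10 genes are a description.

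Taken over all 8 libraries with TMM scaling, the 10 genes leaned higher in shTbl1xr1 without any of them passing the test. Of the 10, 9 had positive log2 fold changes, where 50.6% of all tested genes did, and the median was 0.46 against 0.01 over all tested genes. The gene with the largest value was Thrsp, with mean levels of 16.5 and 75.8 CPM, followed by Acacb, Fasn and Acss2. The exception was Acly, with a negative value. For scale, 7 of 9 hepatocyte marker genes also had positive values, with a median of 0.41, and their summed level was highest in the shallow pair (86374 and 95350 CPM, against 58703 to 82939 CPM in the other 6). Their part in the lipogenic values was not tested. The number of positive values depended on the scaling. With library size alone 6 of the 10 were positive, with a median of 0.22 against -0.27 over all tested genes. Acly, at -0.50, was the only member below that median of all genes. In deposited TPM, which is scaled by length, mean levels were lower in shTbl1xr1 for Acly (59.7 and 40.8), Me1 (43.2 and 30.5) and Pklr (43.1 and 31.2). They were slightly lower for Srebf1 (58.1 and 55.2) and Mlxipl (36.8 and 36.0), and higher for Fasn, Acaca, Acacb, Thrsp and Acss2. No median over all genes was taken in TPM, so these means cannot show whether the genes fell beside other genes. TPM could be lower in the shallow pair where CPM was higher and length steady. Aco1, outside the 10, had 199.27 and 190.02 CPM there, against 167.85 to 182.24 CPM in shNC. Its TPM was 35.42 and 30.1 there, 54.73 to 67.55 in shNC, and 71.94 and 90.79 in shTbl1xr1 3 and 4. By edgeR's quasi-likelihood test 0 of the 10 passed an adjusted p of 0.05 over all genes in either direction. Over all 13908 genes 0.0431% were called higher and 0.00719% lower, so a call was rare for any gene. At an unadjusted p under 0.05, 4 of the 10 (Thrsp, Acacb, Acss2 and Fasn) were higher and 0 lower, against 7.9% of all genes higher and 3.71% lower. DESeq2 called 1 of the 10 higher (Thrsp) and 0 lower, against 1.86% and 0.352% of genes. Only Acacb had groups that did not overlap, as did 3.88% of all genes in the higher direction and 3.37% in the lower.

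**Figure D1:**
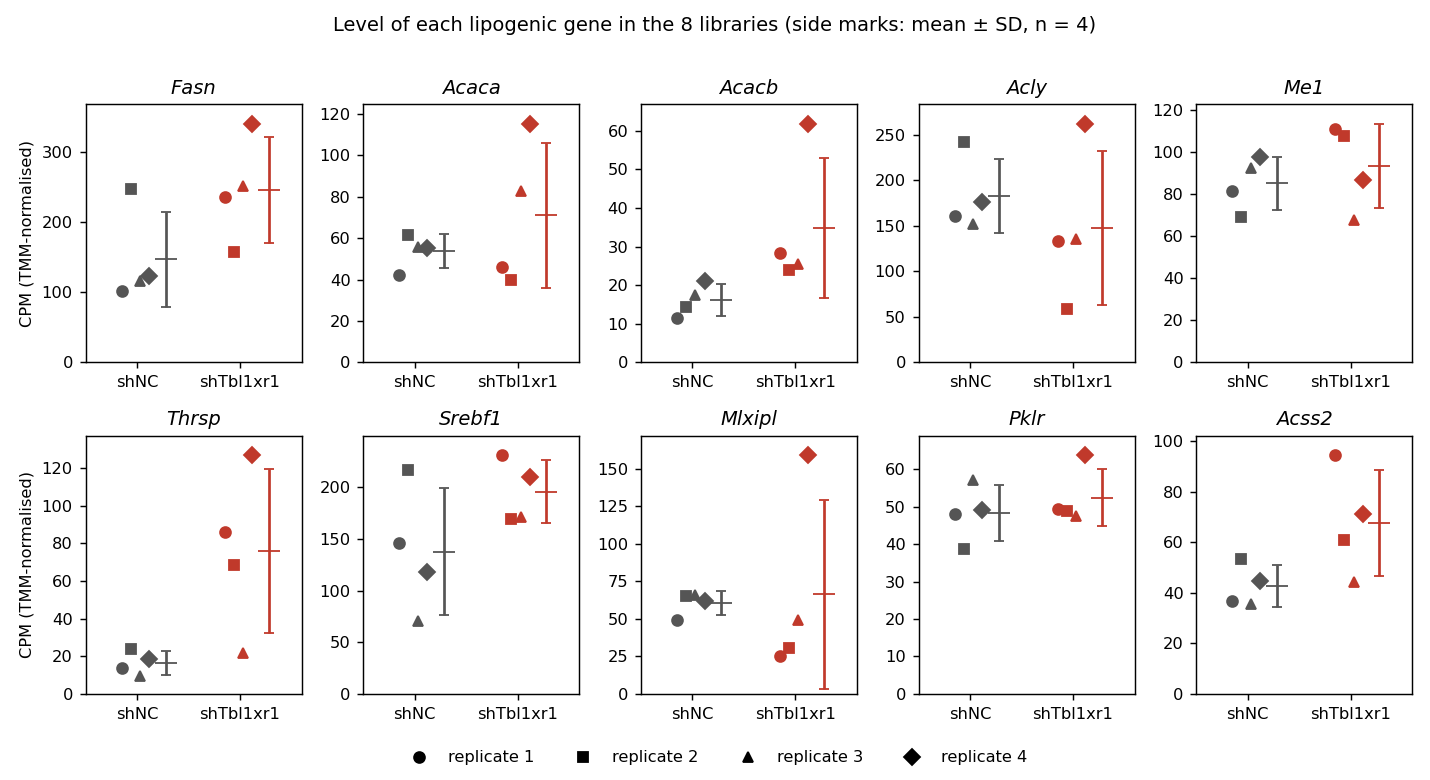
TMM-normalised CPM of each of the 10 genes in every library, with shNC in grey and shTbl1xr1 in red, a symbol for each replicate number, and the mean ± SD (n = 4) as a side mark. All 4 shTbl1xr1 libraries lie above the shNC libraries for Acacb, 3 of 4 do for Thrsp and Acss2, and shTbl1xr1 4 (diamond) is the highest library for 7 of the genes.

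The acetyl-CoA sources had log2 fold changes of opposite sign. Acly, ATP citrate lyase, splits citrate exported from mitochondria, and had 161, 242, 152 and 177 CPM in shNC 1 to 4 and 134, 58.4, 135 and 262 CPM in shTbl1xr1 1 to 4. The libraries shTbl1xr1 1, 2 and 3 were thus below every shNC library and shTbl1xr1 4 above all of them. Its log2 fold change was -0.31 (SE 0.38, adjusted p = 0.735 by edgeR), and 0.12 without the shallow pair. It was -0.05 without shTbl1xr1 2, -0.15 without shNC 2 and -0.74 without shTbl1xr1 4. Acss2, the cytosolic acetyl-CoA synthetase that activates acetate, had 36.6, 53.5, 35.6 and 44.5 CPM in shNC and 94.5, 60.8, 44.2 and 71.3 CPM in shTbl1xr1. It was above every shNC library in 3 of 4 and inside their range in shTbl1xr1 3, which gave a fold change of 0.67 on the log2 scale (SE 0.24, adjusted p = 0.397 by edgeR), and of 0.44 in the deeper libraries only. Acss2 overlaps Gss, a gene on the other strand with means of 165 and 191 CPM, over 22544 bases. No source used here states whether strand was used in counting, so reads of these genes may not be fully separated.

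These 2 sources were also set against each other inside each library, where scaling plays no part. The log2 ratio of Acly to Acss2 in deposited TPM was 1.58, 1.59, 1.53 and 1.39 in shNC 1 to 4 and -0.05, -0.49, 1.04 and 1.24 in shTbl1xr1 1 to 4. All 4 shTbl1xr1 libraries were lower than all 4 shNC libraries, with the shallow pair furthest away. The mean difference was -1.09, with an exact two-sided permutation p of 0.0286 (n = 4 against 4), the smallest this design allows, and 0.0857 after Benjamini-Hochberg adjustment over the 6 ratios compared. From expected counts the difference was -1.11, with the same order of groups (exact permutation p = 0.0286, adjusted p = 0.0571). The size rested on the shallow pair: in TPM the difference was -0.38 in the deeper libraries only and -1.79 with the shallow pair alone.

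The carboxylases, which make malonyl-CoA, also differed from each other. Acacb, the isoform tied to mitochondria and known for its malonyl-CoA restraining fatty acid import, had 11.6, 14.2, 17.5 and 21.1 CPM in shNC and 28.3, 23.9, 25.5 and 61.9 CPM in shTbl1xr1. Every shTbl1xr1 library lay above every shNC library, with the nearest pair at 21.1 and 23.9 CPM, and shTbl1xr1 4 stood far above the rest. The log2 fold change was 1.12 (SE 0.33, adjusted p = 0.329 by edgeR), from means of 16.1 ± 4.11 and 34.9 ± 18.1 CPM (SD, n = 4 each). It was 0.68 without shTbl1xr1 4. Acaca, the cytosolic isoform that feeds fatty acid synthase, had 42.4, 61.6, 56.0 and 55.4 CPM in shNC and 45.9, 39.9, 83.0 and 115 CPM in shTbl1xr1. Its deeper shTbl1xr1 libraries were above the shNC range and its shallow ones inside that range (shTbl1xr1 1) or below it (shTbl1xr1 2), so that its log2 fold change over all libraries was 0.41 (SE 0.32, adjusted p = 0.585 by edgeR). It was 0.88 without the shallow pair, -0.33 with the shallow pair alone and 0.07 without shTbl1xr1 4. The log2 ratio of Acacb to Acaca in TPM was 1.11 higher in shTbl1xr1, with overlapping groups (exact permutation p = 0.114, adjusted p = 0.229). It was 0.39 higher in the deeper libraries only and 1.82 with the shallow pair alone.

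Fasn, which carries out all steps of palmitate assembly, had 101, 247, 116 and 123 CPM in shNC and 236, 157, 252 and 341 CPM in shTbl1xr1. The library shNC 2 stood with the shTbl1xr1 libraries, and the other 3 shNC libraries lay below all 4 of them. The log2 fold change was 0.75 (SE 0.33, adjusted p = 0.426 by edgeR), and 1.12 without shNC 2 (adjusted p = 0.546).

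Thrsp encodes Spot14, a small nuclear and cytosolic protein induced by thyroid hormone and feeding that promotes lipogenesis. It had 13.7, 24.0, 9.69 and 18.6 CPM in shNC and 86.1, 68.2, 21.9 and 127 CPM in shTbl1xr1. The libraries shTbl1xr1 1, 2 and 4 were far above shNC, while shTbl1xr1 3 lay inside the shNC range. The log2 fold change was 2.20 (SE 0.49, adjusted p = 0.217 by edgeR), and DESeq2 gave an adjusted p of 0.000656. By edgeR the value was 2.17 (SE 0.62) in the deeper libraries only and 2.22 with the shallow pair alone. The value of 2.17 came from unlike libraries. Their log2 differences from the shNC mean were 0.49 in shTbl1xr1 3 and 3.02 in shTbl1xr1 4. Mid1ip1, the paralog of Thrsp whose product binds acetyl-CoA carboxylase, had means of 19.6 ± 7.73 and 36.0 ± 18.0 CPM (SD, n = 4 each). The log2 ratio of Thrsp to Mid1ip1 in TPM did not overlap between groups and was 1.28 higher in the mean of shTbl1xr1 (exact permutation p = 0.0286, adjusted p = 0.0857). The nearest libraries were shNC 4 at 0.99 and shTbl1xr1 3 at 1.01, and the difference was 0.83 without shTbl1xr1 4.

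Me1 and Pklr, which supply NADPH and pyruvate, showed the smallest values. Me1 had 81.4, 69.1, 92.5 and 97.3 CPM in shNC and 111, 108, 67.7 and 86.8 CPM in shTbl1xr1, above shNC in the shallow pair and not in the deeper pair. Its log2 fold change was 0.13 (SE 0.20, adjusted p = 0.784). Pklr, the last enzyme of glycolysis and a standard ChREBP target, had 48.0, 38.8, 57.1 and 49.1 CPM in shNC and 49.4, 48.9, 47.6 and 63.8 CPM in shTbl1xr1. Only shTbl1xr1 4 lay outside the shNC range, and the log2 fold change was 0.12 (SE 0.17, adjusted p = 0.759). Scaling by total count alone put the median of all genes at -0.27, Me1 at -0.23 and Pklr at -0.16, so both lay above that median and their signs turned. With 1 library left out in turn, Me1 ran from 0.04 to 0.26 and Pklr from 0.01 to 0.21. In the deeper libraries only they were at -0.14 and 0.21. The log2 ratio of Pklr to Pkm, the pyruvate kinase gene of other tissues and of growing cells, differed by -0.09 in TPM and by 0.31 in expected counts (exact permutation p = 0.8 and 0.486), and in TPM by -0.0016 in the deeper libraries only.

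The transcription factor genes showed different patterns over the libraries. Srebf1 had 146, 217, 70.2 and 118 CPM in shNC and 231, 169, 171 and 210 CPM in shTbl1xr1. Its shNC libraries were spread over a wide range and the shTbl1xr1 libraries sat closer together, in its upper part or just above it, for a fold change of 0.51 on the log2 scale (SE 0.31, adjusted p = 0.501 by edgeR). Its value depended on the spread in shNC, with 0.81 without shNC 2 and 0.29 without shNC 3. The log2 ratio of Srebf1 to Srebf2, the gene of the SREBP that governs cholesterol synthesis, was higher by 0.52 in TPM (exact permutation p = 0.2, adjusted p = 0.3) and by 0.75 in expected counts (0.0286 and 0.0571). Without shNC 3 the TPM difference was 0.28. In expected counts all 4 shTbl1xr1 libraries, at 1.92 to 2.08, were above all 4 shNC libraries. Mlxipl had 49.0, 65.5, 65.8 and 62.1 CPM in shNC and 25.5, 30.9, 49.6 and 159 CPM in shTbl1xr1. The shallow pair was far below shNC, shTbl1xr1 3 was at the bottom of its range, and shTbl1xr1 4 was far above it. The mean log2 fold change of 0.14 (SE 0.51, adjusted p = 0.922) lay between library values that went in opposite directions. It was -1.11 with the shallow pair alone, 0.78 with the deeper pair alone and -0.77 without shTbl1xr1 4. Mlx, the gene of the partner with which ChREBP binds DNA, had means of 41.6 and 51.4 CPM, and the log2 ratio of Mlxipl to Mlx in TPM ran from -2.78 to 1.35 in shTbl1xr1 and from -0.78 to 0.39 in shNC (exact permutation p = 0.4). The mean difference was -0.81 over all libraries, 0.60 in the deeper libraries only and -2.22 with the shallow pair alone.

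**Figure D2:**
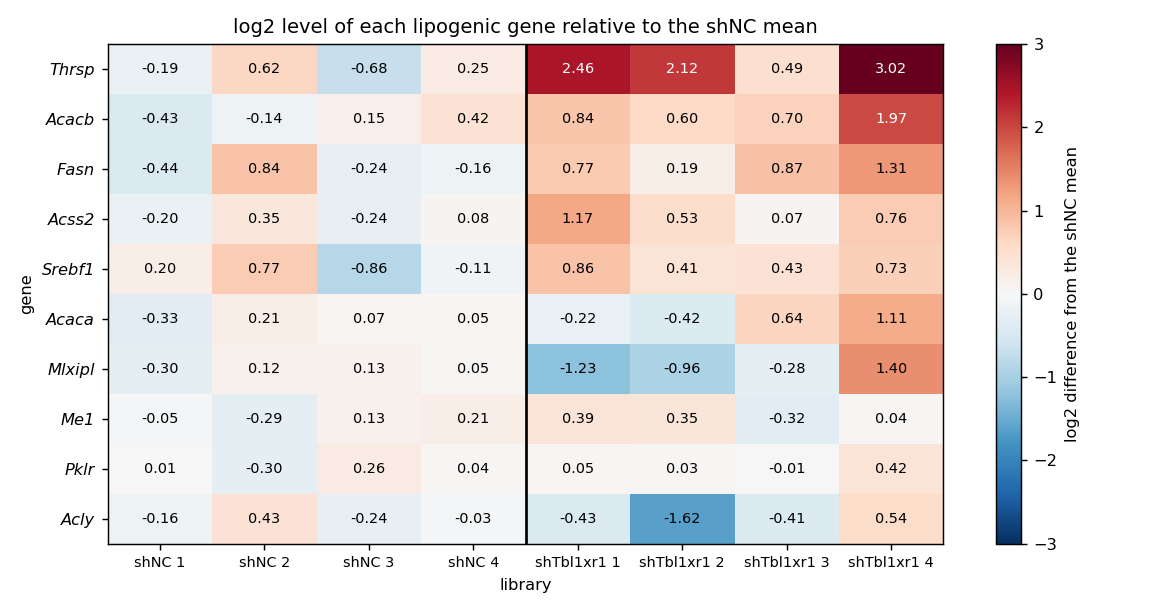
Log2 level of each gene in each library minus the mean log2 level of the 4 shNC libraries, with red above and blue below. The column of shTbl1xr1 4 is positive for all 10 genes, and the shallow pair (shTbl1xr1 1 and 2) is negative for Mlxipl, Acly and Acaca and positive for the other 7.

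Counted by library, the 10 genes were furthest from shNC in shTbl1xr1 4, where Tbl1xr1 was highest among the shTbl1xr1 libraries. There 8 of the 10 (all but Me1 and Srebf1) were above every shNC library and 0 below, against 28.4% and 26.7% of all tested genes. The mean log2 difference from shNC was 1.13. In shTbl1xr1 1, 5 were above and 2 below (35.9% and 41.2% of all genes), with a mean of 0.47, and in shTbl1xr1 2, 4 were above and 3 below (35.9% and 41.3%), with a mean of 0.12. In shTbl1xr1 3, 3 were above and 2 below (27.1% and 27.5%), with a mean of 0.22. Only in shTbl1xr1 4 was the share of the 10 genes above every shNC library more than 1.5 times that of all genes. Across the 8 libraries the 2 genes most alike were Thrsp and Acss2 (Pearson r = 0.92) and then Acaca and Mlxipl (0.81), while Me1 went against Acly (-0.50). These correlations share libraries, their depth and their group means, and are given as a description.

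**Figure D3:**
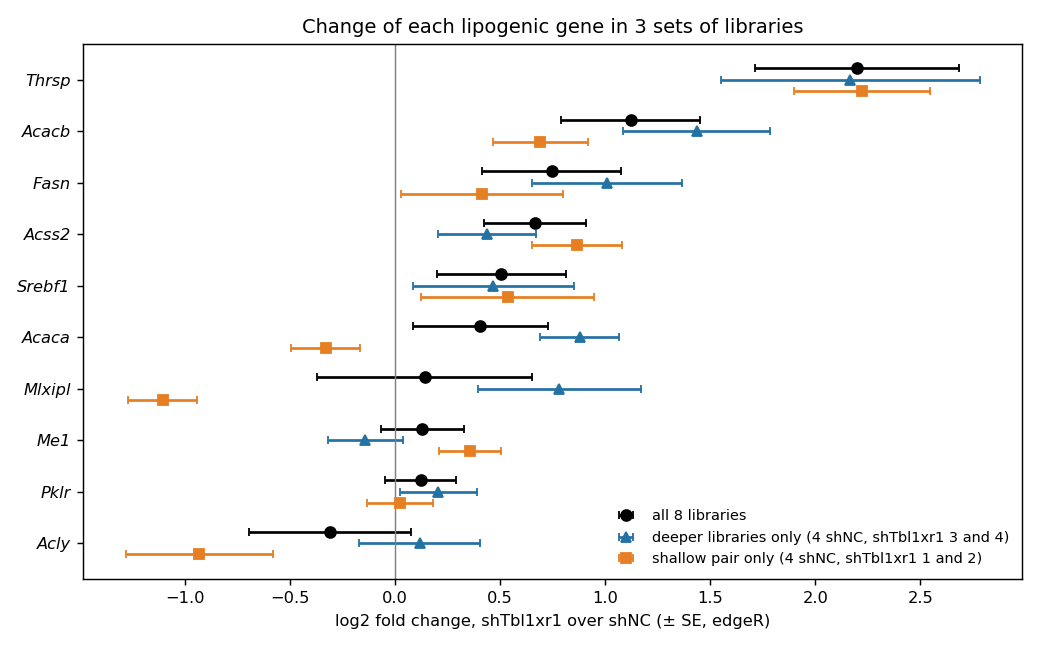
Log2 fold change of each gene (± SE, edgeR) with all 8 libraries, with the deeper libraries only and with the shallow shTbl1xr1 pair only. The fitted values of Thrsp lie between 2.17 and 2.22, though its 2 deeper shTbl1xr1 libraries differ widely. Acaca, Mlxipl, Acly and Me1 have opposite signs in the deeper and the shallow pair.

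The shallow and the deeper shTbl1xr1 libraries gave different calls. With the shallow pair alone against 4 shNC, Thrsp, Acacb and Acss2 were called higher by edgeR (adjusted p = 0.00204, 0.0361 and 0.0121) and Mlxipl lower (0.00101). In that fit 21.5% of all genes were called higher and 21.1% lower, so 3 and 1 of 10 are near the background. With the deeper pair alone, 0 of 10 were called, with 0.0478% of genes called higher and 0% lower. The genes with the smallest unadjusted p in the deeper pair were Acaca (log2 fold change 0.88, SE 0.19, adjusted p = 0.204) and Acacb (1.44, SE 0.35, adjusted p = 0.246). Whether the pairs differ for any gene was not tested.

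Per length, the order of the genes was loose. TPM is the deposited value scaled by transcript length and so allows genes to be compared. In shNC the mean TPM was highest for Acly (59.7 ± 13.8) and Srebf1 (58.1 ± 29.9), then Me1 (43.2), Pklr (43.1), Mlxipl (36.8), Fasn (32.5), Acss2 (20.8), Thrsp (20.3), Acaca and Acacb (2.68 ± 0.727; SD, n = 4). All neighbours in that order had overlapping ranges except Acaca and Acacb, where the lowest Acaca library (6.16 TPM) lay above the highest Acacb library (3.61 TPM). In shTbl1xr1 the mean of Thrsp stood 1st, against 8th in shNC, with a wide spread (69.8 ± 62.3 TPM). Among single libraries Thrsp was 1st only in shTbl1xr1 4, at 162 TPM. In shTbl1xr1 1, 2 and 3 it had 52.2, 36.6 and 28.3 TPM, below Fasn at 67.1, 37.6 and 46.3 TPM. By mean, Acacb was again last (5.13 ± 4.13 TPM), and the ranges of all neighbours overlapped.

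The lengths behind these TPM values moved between libraries. The tables give each gene an effective length weighted by the transcripts its reads were assigned to. For Fasn it was 3633 to 7305 bases in the other 6 libraries and 2256 and 2358 bases in the shallow pair. A shorter length by itself raises the TPM of a count. Fasn in shTbl1xr1 1 had 67.1 TPM from 236 CPM, and in shTbl1xr1 3 46.3 TPM from 252 CPM. For Pklr the effective length went the other way, with 1184 to 2002 bases in the other 6 and 2677 and 2684 bases in the shallow pair. The length of a gene was not the only thing that moved its TPM. Me1, at 2820 bases in shTbl1xr1 1 and 2723 in shTbl1xr1 3, had 25.3 TPM from 111 CPM and 33.4 TPM from 67.7 CPM. In both shallow libraries 7 of the 10 genes were longer than in all other libraries and 2 (Fasn and Acacb) shorter, against 48% and 16.9% of all tested genes. The mean in the pair was at least 1.2 times longer or shorter than in the other 6 for 4 of the 10 genes (Fasn, Acaca, Mlxipl and Pklr), against 23.2% of all genes. The library shNC 1 lay nearest to the shallow pair for Fasn (3633 bases), Acaca (8025 bases) and Pklr (2002 bases). With the trend of level on length removed, the log2 fold changes of Fasn, Acaca and Acacb were 0.96, 0.58 and 1.36 (adjusted p = 0.181, 0.151 and 0.0528 by edgeR), and 0 of the 10 genes passed.

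**Figure D4:**
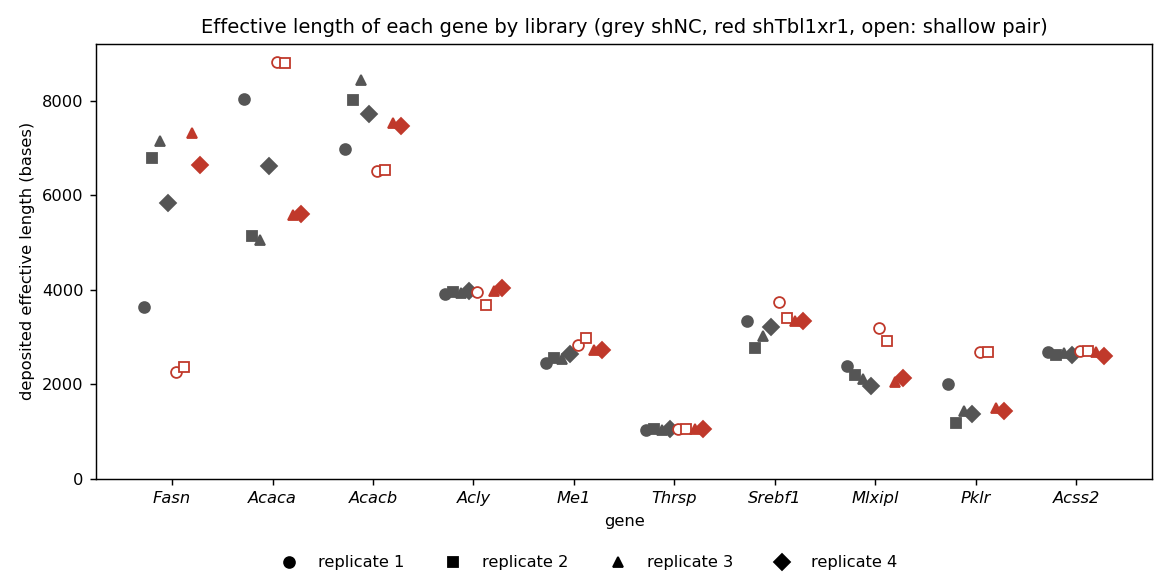
Effective length in bases of each of the 10 genes in every library, as deposited, with shNC in grey, shTbl1xr1 in red and the shallow pair as open symbols. The open symbols are far below the rest for Fasn and above them for Acaca, Mlxipl and Pklr.

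Genes around the pathway, in 7 lists, held 0 that passed edgeR's test over all libraries. The shares of positive values below stand beside 50.6% positive among all tested genes, to which 10 of 17 (insulin and glucose signals) and 8 of 15 (clock) are close. Passes with the shallow pair alone, here and below, stand beside 21.5% of all genes called higher and 21.1% lower in that fit. Among 11 tested genes that supply substrate and NADPH, 8 had positive values (median 0.38). The pentose phosphate enzyme gene Pgd had means of 52.6 ± 3.42 and 89.4 ± 22.9 CPM (SD, n = 4 each; log2 value 0.77, SE 0.19, adjusted p = 0.276 by edgeR), and passed with DESeq2 (adjusted p = 0.0214) and with the shallow pair alone (0.00382). The citrate synthase gene Cs had means of 122 ± 3.65 and 162 ± 23.4 CPM (0.41, adjusted p = 0.406), and was at 0.25 in the deeper libraries only. The groups overlapped for neither. For 14 genes of SREBP1 activation the median was 0.23, with 12 positive. The smallest p belonged to Scap, the escort protein of SREBP (0.34, adjusted p = 0.438, and 0.20 without shTbl1xr1 4), and Mbtps2, a protease that releases it (0.27, adjusted p = 0.476). Among 17 genes of insulin and glucose signals 10 were positive (median 0.18), and Tkfc was at 0.39 (adjusted p = 0.426), and at 0.22 in the deeper libraries only.

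Among 12 genes that control the carboxylases 9 were positive (median 0.21). Trib3, a pseudokinase gene, had means of 1.02 ± 0.459 and 4.21 ± 4.40 CPM (log2 value 2.09, adjusted p = 0.345), and Mid1ip1 was at 0.87 (adjusted p = 0.43). The value of Mid1ip1 came from the shallow pair, being 0.09 in the deeper libraries only (adjusted p = 0.955) and 1.38 with that pair alone (adjusted p = 0.0182 by edgeR). Trib3 lay at 10.8 CPM in shTbl1xr1 3 and at 1.52 to 2.28 CPM in the other 3, and its log2 value was 1.001 without that library. Among 12 tested genes that use new fatty acids 11 were positive (median 0.26), with the smallest p for the desaturase genes Scd1 and Fads2. Scd1, whose product makes monounsaturated fatty acids, had 399, 624, 879 and 562 CPM in shNC 1 to 4 and 1201, 1596, 2581 and 2356 CPM in shTbl1xr1 1 to 4. Its groups did not overlap, and the log2 value was 1.65 (SE 0.33, adjusted p = 0.18). It passed the threshold with DESeq2 (1.66, adjusted p = 5.5e-05) and with the shallow pair alone (1.18, adjusted p = 0.00993 by edgeR). Fads2 was at 0.52 (adjusted p = 0.412), also without overlap. The summed level of the list, of which Scd1 was the most abundant member, was 2615 to 3119 CPM in shNC and 4346 to 5225 CPM in shTbl1xr1, shallow and deeper libraries alike. Pnpla3, a triglyceride hydrolase gene induced by SREBP1, did not pass the filter on low counts, with means of 0.0758 and 0.123 CPM. All these lists, like the 10 genes, were chosen with earlier results of these data known.

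Of the genes that fasting induces, 9 of 11 had negative values, with a median of -0.28. G6pc, the glucose-6-phosphatase gene of gluconeogenesis, had means of 376 ± 109 and 195 ± 105 CPM (-0.95, SE 0.39, adjusted p = 0.414), without overlap of groups. It was at -0.40 in the deeper libraries only and at -1.86 with the shallow pair alone (adjusted p = 0.000832 by edgeR). The hour of collection, like the feeding, is not stated, and their part in the lipogenic values was not tested. Among 15 clock genes 8 were positive (median 0.16). Dbp, a clock output factor gene, had 3.43 to 10.5 CPM in shNC and 39.9, 25.7, 5.38 and 49.4 CPM in shTbl1xr1 1 to 4 (log2 value 2.17, SE 0.61, adjusted p = 0.32), and passed with DESeq2 (adjusted p = 0.0145) and with the shallow pair alone (0.00807). The library in which Dbp was inside the shNC range, shTbl1xr1 3, was also the library in which Thrsp was, and both genes were highest in shTbl1xr1 4. The core clock gene Clock had 55.3 ± 6.79 and 37.8 ± 5.04 CPM (-0.54, adjusted p = 0.327), without overlap. Of Dbp, Clock and the 10 genes, the part that daily phase played was not tested.

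**Figure D5:**
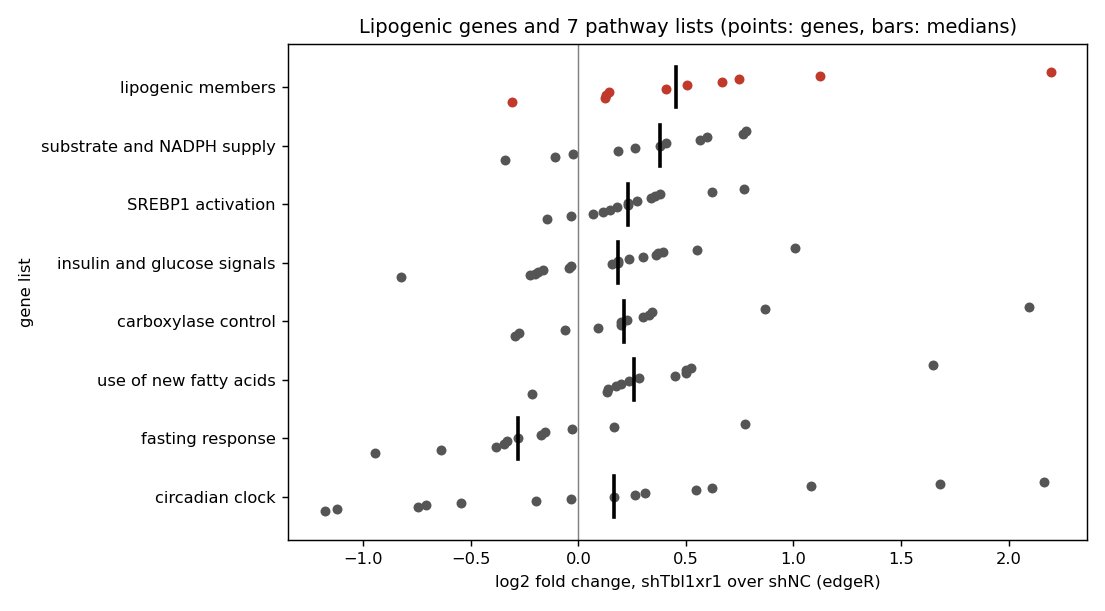
Log2 fold change (edgeR) of each tested gene in the lipogenic set and in 7 pathway lists, with a bar at each median. The medians lie between 0.16 and 0.46 except for the fasting response, at -0.28.

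Of all expressed genes, 8 had the library profile most like the mean log2 level of the 10 genes, by Pearson correlation over 8 libraries. These were Sfxn1 (0.98), Rnf144b (0.98), Tcirg1 (0.97), Aco1 (0.97), Scap (0.96), Ptdss2 (0.94), Sema4g (0.93) and Sik3 (0.93). Their mean levels differed little between groups, from 1.16 times the shNC mean in Tcirg1 to 1.27 times in Sik3. A Pearson correlation does not depend on the size of a change, so the group difference can be part of the likeness. Each of these genes, like the mean of the 10, was highest in shTbl1xr1 4. Aco1 and Ptdss2 had groups that did not overlap. These are the highest of 9288 correlations over only 8 libraries.

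Markers of 3 other liver cell types were lowest in the shallow pair. The summed level of 8 macrophage markers was 434 to 713 CPM in shNC and 190 to 549 CPM in shTbl1xr1, with 8 of 8 log2 fold changes negative, and that of 8 endothelial markers 224 to 261 and 126 to 268 CPM, also with 8 of 8 negative. Stellate cell markers summed to 248 to 476 and 114 to 567 CPM, with 7 of 8 negative. In each of these 3 lists the lowest sums were those of the shallow pair, and their part in the lipogenic values was not tested. The most abundant markers of these lists were Cd5l, Clec4g and Col3a1. Hepatocyte markers summed to 59198 to 77899 CPM in shNC and 58703 to 95350 CPM in shTbl1xr1. Bile duct markers, led by Spp1, summed to 42.0 to 128 and 52.9 to 248 CPM, with 5 of 7 positive and the highest sum in shTbl1xr1 3. Lymphocyte markers, led by Cd4, summed to 3.25 to 4.80 and 2.00 to 3.55 CPM (2 of 3 tested negative), and neutrophil markers, led by S100a9, to 3.81 to 9.63 and 2.38 to 17.3 CPM (4 of 4 tested positive).

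Fat cells also express these enzymes. Of 9 adipocyte markers Lep was at 0 in every library, and Adipoq, Plin1, Cfd and Retn stayed under 0.5 CPM in all 8. The summed level, carried by Fabp4, which other liver cells also express, was 33.0 to 41.4 CPM in shNC and 31.4 to 43.7 CPM in shTbl1xr1, with 3 of 4 tested members positive.

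In mm10, the build named in the submitters' processing notes, Fasn (ENSMUSG00000025153.9), Acaca, Acly and Srebf1 lie on chromosome 11, at 120805846 to 120824547, 84129672 to 84401651, 100476353 to 100528000 and 60199089 to 60222581. Acacb and Mlxipl lie on chromosome 5, at 114146535 to 114250761 and 135089890 to 135138382. Thrsp lies on chromosome 7 (97412938 to 97417730), Me1 on chromosome 9 (86581371 to 86695953), Pklr on chromosome 3 (89136142 to 89146784) and Acss2 on chromosome 2 (155517948 to 155585724). These are whole annotated genes, exons and introns together. Acss2 and Acaca are the members with the longest overlaps with other annotated genes, Acaca with the predicted gene Gm11437 on the other strand (19126 bases; means of 1.37 and 2.51 CPM).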

How the data were processed

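Each library's table was deposited by the authors with an expected count per gene, its length, and TPM and FPKM values. STAR, RSEM, DESeq2 (version 1.30.1) and mm10 are listed in the submitters' processing notes. Options, strand and annotation are not stated in the sources used here. The authors' expected counts, which need not be whole, were rounded. The deposited TPM, scaled by effective length per the file headers, served for levels between genes and for ratios. The deposited FPKM was not used, and of the lengths only the effective length was. RSEM divides fragments that fit several genes by likelihood, so values of paralogs (Acaca and Acacb, Pklr and Pkm) are estimates.

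Symbols came from GENCODE mouse release 21 on GRCm38 (55141 of 55401 identifiers matched without the version suffix), and promoters from RefSeq on GRCm38.p6. Genes were filtered with filterByExpr, scaled by TMM and compared in edgeR 4.0.16 (R 4.3.3) by the quasi-likelihood test with robust dispersions. P-values were adjusted by Benjamini-Hochberg over all 13908 genes, with a threshold of 0.05. Log2 levels used a prior count of 2. Ratios were compared by two-sided exact permutation over 70 arrangements. DESeq2 1.42.0, limma 3.58.1 and sva 3.50.0 served in the 20 alternatives. On simulated counts for shTbl1xr1 against shNC (13908 genes, 200 changed), edgeR recovered 15% of 2-fold and 70% of 4-fold changes, with 2 false calls. Genes were drawn independently, with the scaled library sizes of the data but no other effect shared within a library. These rates therefore need not hold for the real libraries, among which the shallow pair stood apart.

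The genes, lists and alternatives were chosen with earlier results of these data known. The text names the 10 genes, Tbl1xr1, the ratio partners, from each pathway list the members past the threshold or otherwise the 2 with the smallest p, the most abundant marker of each list, and the 8 genes with the most similar profile. Results for some genes under this rule are not reported here. Pnpla3, Gss, Gm11437 and the adipocyte markers were named after their values were seen.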

Additional observations from a re-analysis of the deposited data

Results flagged for a closer look

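In each group of 4 libraries, the gap between the most distant library and its nearest neighbour was compared with the group's whole range for every named gene and ratio (Dixon's 95% criterion). Of 84 such groups 6 passed, where chance alone flags about 1 in 20. Among the lipogenic genes, Fasn was at 247 CPM in shNC 2 and at 101 to 123 CPM in the other shNC libraries. Acacb was at 61.9 CPM in shTbl1xr1 4 and at 23.9 to 28.3 CPM in the other 3, and Pklr was at 63.8 CPM in shTbl1xr1 4 and at 47.6 to 49.4 CPM in the others. Outside them, Trib3 was at 10.8 CPM and Spp1 at 202 CPM in shTbl1xr1 3, against 1.52 to 2.28 and 25.7 to 51.5 CPM in the other shTbl1xr1 libraries. Cd4 was at 1.24 CPM in shTbl1xr1 4, against 0.515 to 0.626 CPM.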

How the results depend on the processing

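Of the 10 genes 0 were called higher and 0 lower under every alternative except DESeq2 (1 higher, Thrsp) and the shallow shTbl1xr1 pair only (3 higher and 1 lower). The median log2 fold change of the 10 lay between 0.22 (library size alone) and 0.65 (replicate block with length trend removed) and was positive in all 20 alternatives. The signs of Fasn, Acacb, Thrsp, Srebf1 and Acss2 held in all 20. Scd1 was also called with 1 surrogate variable and with the length trend removed, with or without the replicate block. Tbl1xr1 was called with 1 surrogate variable (adjusted p = 0.00739).

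Directions turned as follows. With the shallow pair only, Acaca was at -0.33 and Mlxipl at -1.11. In the deeper libraries only, Acly was at 0.12, Me1 at -0.14 and the ratio of Mlxipl to Mlx at 0.60. With library size alone Me1 was at -0.23, Mlxipl at -0.001, Pklr at -0.16 and Mbtps2 at -0.006. With 1 surrogate variable Me1 was at -0.064. Mlxipl was also at -0.27 with limma-voom and ran from -0.77 to 0.41 when 1 library was left out, -0.77 without shTbl1xr1 4. The ratio of Pklr to Pkm was 0.31 in expected counts, and ran from -0.42 (without shTbl1xr1 4) to 0.17 (without shTbl1xr1 3) when 1 library was left out, turning sign also without shNC 4 and shTbl1xr1 1. The causes were not tested.

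Over all genes, 6 were called higher and 1 lower. The counts were 38 and 4 with 1 surrogate variable, 248 and 47 with DESeq2, 26 and 3 with the length trend removed, and 3073 and 3021 with the shallow pair only. In the deeper libraries only 0 were lower, library size alone gave 3 higher, limma-voom 0 lower, and no low-count filter 12 higher. Leaving out 1 library gave 0 to 28 higher and 0 to 6 lower: 0 and 0 without shNC 1, 2 or 4, and 28 and 6 without shTbl1xr1 4. With 4 libraries against 3 the exact test of a ratio cannot go below 0.0571.

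Same-numbered libraries correlated at 0.38, -0.07, 0.30 and 0.12 in their deviations from group means, and differently numbered ones at -0.38 to 0.37. In 3 of 4 numbers the pair was over 0.1 and the best match of its shNC library, a weak hint from the data. However, shNC 1 correlated almost equally with both libraries of the shallow pair (0.379 with shTbl1xr1 1 and 0.375 with shTbl1xr1 2). With shNC 2 at -0.07 for its own number as well, the libraries were not treated as paired. With the replicate block, 4 genes were higher and 1 lower over all genes, 0 of the 10 passed, and Mlxipl was at -0.29. The replicate block with length trend removed gave 14 and 2, with Mlxipl at -0.21.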
